A study of Mus musculus with 8 samples.

Results

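The genes of cholesterol and fatty acid synthesis and of the SREBP pathway that controls them were examined for chromatin accessibility in regulatory T (Treg) cells that lack Flcn. The set has 33 genes: 18 of sterol synthesis and transport, 10 of fatty acid synthesis, and 5 that encode the SREBP transcription factors and their regulators. A peak belonged to a gene of the set if that gene was the nearest protein-coding gene by its RefSeq span, at a distance of at most 50 kb, with ties going to the nearest gene end. This gave 111 of the 57199 peaks of the series: 35 at sterol genes, 59 at fatty acid genes and 17 at regulators. Peaks were found at 31 of the 33 genes. Nsdhl and Fads2 had none by this rule. Position alone says nothing of the gene on which a peak acts.

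Open chromatin was mapped by ATAC-seq, a method that uses a transposase to tag accessible DNA, in CD4+ Foxp3-YFP+ CD45.2+ CD45.1- Treg cells sorted from mouse spleen. Flcn KO cells came from mixed bone-marrow chimeras that received Foxp3-Cre Flcn fl/fl donor marrow, and WT cells from mixed chimeras with donor marrow of WT genotype. Each group had 4 biological replicates. In both groups the sorted cells developed beside cells of another donor. The labels give no age or sex, and Cre is driven by Foxp3, so deletion occurs in cells that express or have expressed Foxp3. Which exons the floxed allele loses is not given in the labels, so the 2 tested peaks at Flcn (log2 fold changes −0.57 and −0.28, adjusted p = 0.463 and 0.679 by edgeR) check no genotype.

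Cholesterol is built from acetyl-CoA through mevalonate, isoprenoid diphosphates, squalene and lanosterol. Fatty acids are built from the same acetyl-CoA through malonyl-CoA and palmitate, which is then lengthened and desaturated. Both sets of genes are classical targets of the SREBP factors, which stay in the endoplasmic reticulum bound to SCAP and INSIG when sterols are plentiful and travel to the Golgi for cleavage when sterols are scarce. Flcn encodes folliculin, a lysosomal regulator of mTORC1, a kinase complex known to promote SREBP activity. Activated T cells and Treg cells use the mevalonate pathway during proliferation and for suppressive function. The comparison therefore asks whether accessibility at these genes differs when Flcn is lost in Treg cells.

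The promoter sequences of 7 of these genes are shown as examples of the promoters described below, at none of which a peak was called: the only promoter of the set with the sterol regulatory element searched for (Hmgcs1), the most open promoter of the set (Msmo1), the gene with the only called peak (Lss, whose called peak lies outside the printed window), both SREBP regulators with an E-box (Insig1 and Scap), and 2 fatty acid genes (Fasn and Acss2). Each is the 250 bases before a RefSeq start site, 5′ to 3′ on the gene's strand, taken from RefSeq's promoter table for GRCm38.p6 (mm10). The windows are Hmgcs1 at chr13:119690101-119690350 (plus strand), Msmo1 at chr8:64733579-64733828 (minus strand), Lss at chr10:76531355-76531604 (plus strand), Insig1 at chr5:28071162-28071411 (plus strand), Scap at chr9:110333106-110333355 (plus strand), Fasn at chr11:120824548-120824797 (minus strand) and Acss2 at chr2:155517793-155518042 (plus strand). Capitals mark every match, on either strand, to TCACNCCAC (core of the sterol regulatory element), CACGTG (E-box), CCAAT (the NF-Y box, ATTGG on the opposite strand) or GGGCGG (the Sp1 box, CCGCCC on the opposite strand).
Hmgcs1: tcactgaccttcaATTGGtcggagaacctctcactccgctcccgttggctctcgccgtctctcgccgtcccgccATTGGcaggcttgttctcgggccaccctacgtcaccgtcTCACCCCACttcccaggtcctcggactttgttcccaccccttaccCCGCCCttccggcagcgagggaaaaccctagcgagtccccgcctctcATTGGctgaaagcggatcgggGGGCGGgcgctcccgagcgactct
Msmo1: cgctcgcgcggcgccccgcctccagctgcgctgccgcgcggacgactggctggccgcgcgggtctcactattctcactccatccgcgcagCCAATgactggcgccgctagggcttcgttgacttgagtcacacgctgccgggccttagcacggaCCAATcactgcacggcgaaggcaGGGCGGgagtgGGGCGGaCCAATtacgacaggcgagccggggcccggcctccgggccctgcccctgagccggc
Lss: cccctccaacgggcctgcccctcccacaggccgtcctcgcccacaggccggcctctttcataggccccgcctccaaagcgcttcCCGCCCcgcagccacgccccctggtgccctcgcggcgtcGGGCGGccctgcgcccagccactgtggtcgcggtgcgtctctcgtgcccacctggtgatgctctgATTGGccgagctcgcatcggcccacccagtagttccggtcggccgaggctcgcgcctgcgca
Insig1: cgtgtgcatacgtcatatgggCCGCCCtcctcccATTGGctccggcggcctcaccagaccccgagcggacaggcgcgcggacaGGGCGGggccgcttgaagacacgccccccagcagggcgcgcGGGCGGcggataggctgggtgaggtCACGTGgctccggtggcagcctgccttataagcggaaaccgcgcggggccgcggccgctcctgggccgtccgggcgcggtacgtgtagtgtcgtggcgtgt
Scap: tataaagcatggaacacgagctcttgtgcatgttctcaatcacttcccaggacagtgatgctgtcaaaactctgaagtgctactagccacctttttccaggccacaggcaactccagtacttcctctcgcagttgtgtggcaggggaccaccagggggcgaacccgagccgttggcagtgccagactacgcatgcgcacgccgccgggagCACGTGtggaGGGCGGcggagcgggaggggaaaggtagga
Fasn: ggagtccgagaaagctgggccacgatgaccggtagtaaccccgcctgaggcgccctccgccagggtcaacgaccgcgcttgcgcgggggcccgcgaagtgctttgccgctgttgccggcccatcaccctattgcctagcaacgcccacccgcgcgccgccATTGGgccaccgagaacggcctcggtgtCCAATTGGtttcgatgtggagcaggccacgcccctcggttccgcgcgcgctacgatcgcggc
Acss2: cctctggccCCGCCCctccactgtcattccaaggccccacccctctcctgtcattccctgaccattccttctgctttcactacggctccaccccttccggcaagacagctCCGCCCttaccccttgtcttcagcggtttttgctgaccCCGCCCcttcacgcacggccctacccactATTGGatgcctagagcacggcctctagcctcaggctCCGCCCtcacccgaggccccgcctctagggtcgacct

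NF-Y and Sp1 are the factors with which SREBPs are known to cooperate at promoters. CCAAT was present in 22 of the 34 promoter windows available for 26 genes of the set (64.7%), against 37.4% of all 32851 RefSeq promoter windows of the same 300 bases. GGGCGG was present in 25 of the 34 windows (73.5%), against 35.7% of all windows. By gene, CCAAT was found in 13 of 14 sterol genes, 4 of 7 fatty acid genes and 4 of 5 regulators, and GGGCGG in 13 of 14, 3 of 7 and 5 of 5. The E-box CACGTG, to which SREBP-1, USF and the MiT/TFE factors can bind, occurred in 7 windows of 6 genes (Dhcr7, Elovl5, Hsd17b7, Insig1, Sc5d and Scap), 20.6% of the windows of the set against 7.15% of all. The Scap windows overlap and hold the same E-box, so that site is counted more than once in this share. The CLEAR element TCACGTGA, the E-box form recognised by TFEB and TFE3, was in none of the 34 windows and in 0.974% of all windows. The sterol regulatory element core TCACNCCAC occurred in Hmgcs1 alone, at position −137 from the start site, and in 1.24% of all windows. These are matches of letters and do not show binding. All windows came from 27025 genes, more than the 21883 protein-coding genes used for assignment. The background is therefore not matched to the set. The table held no window for Fdps, Fdft1, Sqle, Stard4, Fads1, Scd1 or Scd2.

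The peak counts of the Flcn KO libraries summed to 5111728, 3824571, 4101756 and 2723344 for replicates 1 to 4, against 4914976, 4499889, 3986331 and 4122933 for WT replicates 1 to 4 (exact two-sided permutation test, p = 0.486, where the smallest p these groups allow is 0.0286). Flcn KO replicate 4 was the shallowest library and had the lowest median correlation with the others (0.898, against 0.913 to 0.920 for the remaining 7 libraries). Even numbers made up 88.7% to 92.5% of the counts of each library, so both ends of most fragments appear to be counted. The Treg marker genes Foxp3, Il2ra, Ikzf2 and Ctla4 all had tested peaks, whose summed level was 1115 to 1329 CPM in Flcn KO and 1077 to 1181 CPM in WT. CPM is the count scaled to the TMM-adjusted library size. The myeloid genes Csf1r and Lyz2 had no tested peak. The myeloid list (3 of 5 genes with a tested peak) summed to 39.8 to 47.2 CPM in Flcn KO and 37.9 to 56.3 CPM in WT. The CD8 T-cell list (2 of 2) summed to 20.3 to 44.2 CPM in Flcn KO and 23.0 to 34.9 CPM in WT, and the NK-cell list (2 of 2) to 224 to 304 CPM in Flcn KO and 213 to 247 CPM in WT. The T-cell list (3 of 3) summed to 179 to 215 CPM in Flcn KO and 203 to 268 CPM in WT. The ranges of these 5 marker lists overlapped between the groups; among their peaks, edgeR called 3 higher and 1 lower of 65 in the Treg list, 1 higher and 1 lower of 10 in the NK-cell list, and none of 8 in the myeloid, 4 in the CD8 T-cell and 14 in the T-cell list, where 2.37% of all tested peaks were called. The shares called in the Treg and NK-cell lists were above that background, and their part in the results below was not tested.

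Among the peaks of these genes, 1 was called different between the groups, and that call did not hold under every alternative. Of the 111 peaks, 100 passed the low-count filter and were tested (29 sterol, 57 fatty acid and 14 regulator peaks of 30 genes), and edgeR's quasi-likelihood test with Benjamini-Hochberg adjustment over all tested peaks called 0 of them higher and 1 lower in Flcn KO at an adjusted p below 0.05. Over all 47859 tested peaks 2.37% were called, 1.35% higher and 1.02% lower, so a count of 1 in 100 is below, but close to, that background. The called peak lies inside Lss, the lanosterol synthase gene. An unadjusted p below 0.05 was reached by 10 of the 100 peaks, 5 in each direction, against 12.9% of all tested peaks (6.87% higher and 5.99% lower). The libraries of the groups did not overlap at 5 of the 100, against 7.59% of all. The median log2 fold change, Flcn KO over WT, was −0.04 over the 100 peaks, −0.01 at sterol genes, −0.05 at fatty acid genes and −0.04 at regulators, beside 0.0039 over all tested peaks. The 11 peaks that were not tested had group means of at most 2.70 CPM, among them the only peak of Stard4, which encodes a sterol carrier protein.

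**Figure D1:**
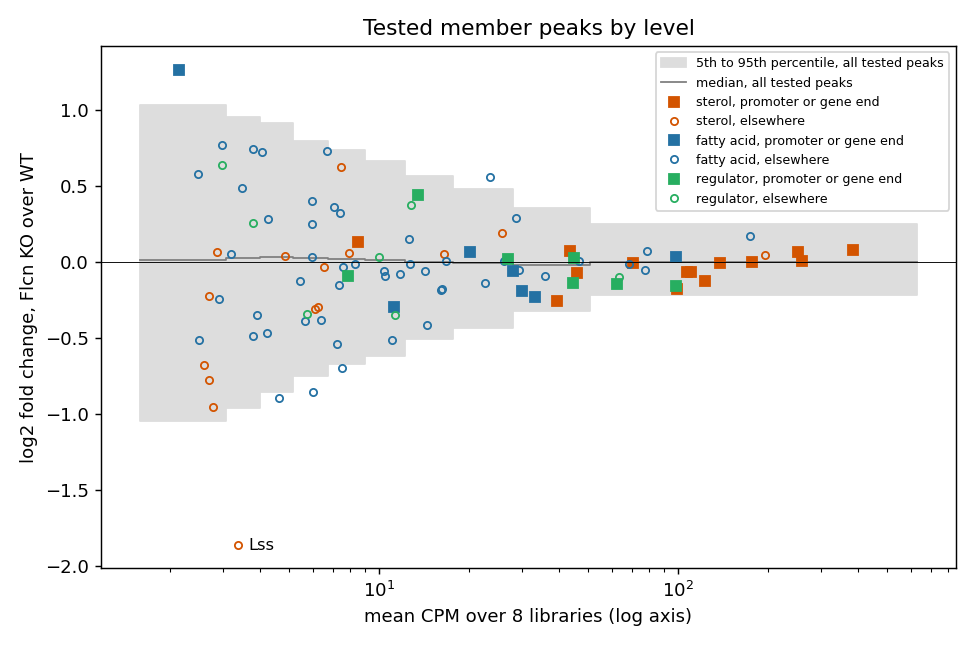
Each point is 1 of the 100 tested peaks of the set, by its mean CPM over 8 libraries (log axis) and its log2 fold change, Flcn KO over WT; filled squares are promoter or gene-end peaks and open circles all others, and the grey band spans the 5th to 95th percentile of all tested peaks at the same level. Of the 100, 2 lie above and 4 below the band, and the Lss peak is the only one called.

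Promoters were described apart from other peaks. A peak was taken as a promoter peak if it overlapped a RefSeq promoter window. For genes missing from that table, the tested peak nearest a gene end, within 1 kb, was taken instead. Strand was not used, so these gene-end peaks, at Fdps, Sqle, Scd1, Scd2 and Fads1, may lie at either end of the gene. They are counted with the promoter peaks here. There were 30 such peaks, 16 at sterol genes, 7 at fatty acid genes and 7 at regulators, and 0 of the 30 were called, where 0.517% of all 8889 tested promoter-window peaks were, and 2.79% of all other peaks. An unadjusted p below 0.05 was reached by 2 of the 30, the Scap promoter peak and the Scd1 gene-end peak, against 7.44% of all promoter-window peaks. Sterol promoters stood among the more open promoters of these cells, with a median percentile of 85.8 by CPM per kb among all tested promoter-window peaks. The medians for regulators and fatty acid genes were 65.0 and 40.8. Per kb of peak, the median level of the 14 peaks assigned to sterol genes was 157 CPM in Flcn KO and 167 CPM in WT. It was 38.8 CPM in Flcn KO and 39.3 CPM in WT for fatty acid promoter and gene-end peaks. It was 78.9 CPM in Flcn KO and 77.4 CPM in WT for regulators, and 50.5 CPM in Flcn KO and 53.0 CPM in WT for all promoter-window peaks. The log2 fold changes of sterol promoters ran from −0.26 to 0.13.

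**Figure D2:**
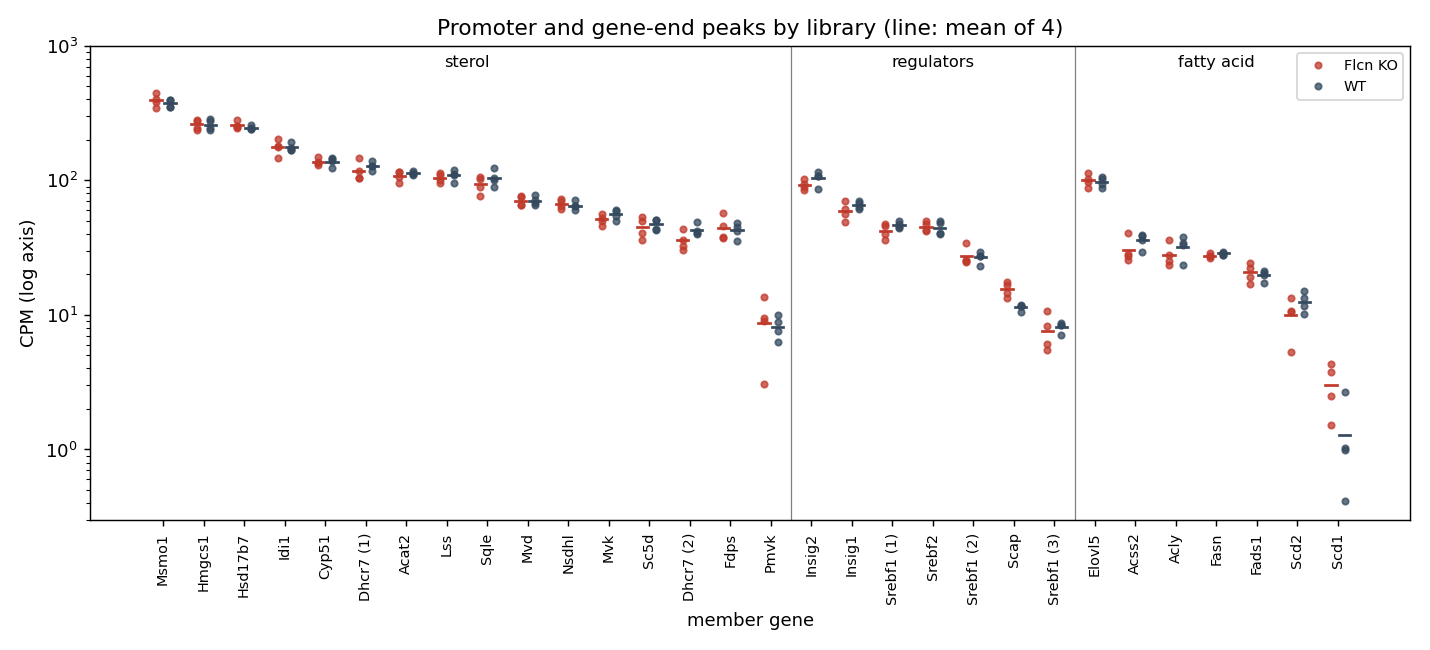
CPM (log axis) of the 30 promoter and gene-end peaks in each library, Flcn KO (red, left) beside WT (dark, right), with a line at the mean of 4; where a gene has several peaks they are numbered by falling WT mean. Points of the groups overlap in every pair except Scap, and sterol promoters such as Msmo1, Hmgcs1 and Hsd17b7 are the highest.

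The first steps of sterol synthesis, up to mevalonate, were open to a similar degree in both groups. Acat2, the cytosolic thiolase that joins acetyl-CoA units, had a promoter peak at chr17:12960221-12960956 with 95.2, 106, 115 and 116 CPM in Flcn KO replicates 1 to 4, against 117, 113, 110.1 and 112 CPM in WT replicates 1 to 4. Hmgcs1, which makes HMG-CoA from its product, had 246, 277, 238 and 284 CPM in Flcn KO and 244, 235, 276 and 285 CPM in WT at chr13:119689916-119690549, in the same replicate order. The libraries of the groups overlapped at both peaks. At Hmgcs1 the log2 fold change was 0.0044 (SE 0.086, 95% interval −0.17 to 0.18, edgeR adjusted p = 0.992), so a change beyond −11.2% to 13.2% lies outside the interval at the promoter that carries the sterol regulatory element printed above. At Acat2 it was −0.068 (95% interval −0.26 to 0.13).

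Mevalonate is then phosphorylated and decarboxylated by the products of Mvk, Pmvk and Mvd, and Idi1 isomerises the resulting isoprenoid unit. The Mvk promoter lies in a peak shared with its neighbour Mmab, to which the peak is assigned, and this peak had 49.7, 56.6, 46.2 and 52.6 CPM in Flcn KO and 54.0, 60.7, 50.0 and 59.5 CPM in WT. The Pmvk promoter peak was the least open of the sterol group, with 8.99, 13.6, 9.45 and 3.05 CPM in Flcn KO and 9.96, 6.25, 7.65 and 8.86 CPM in WT. It lies inside the gene, 4409 bp from the gene end, and overlaps only the upstream edge of a promoter window there. Its centre is 423 bp before that start site, and the peak, 397 bp wide, does not reach it. Another Pmvk window, starting at chr3:89454291, was covered by no peak. Mvd had 65.3, 75.6, 65.1 and 77.0 CPM in Flcn KO and 77.6, 65.6, 67.8 and 71.8 CPM in WT. Idi1 was higher in level than these, in both groups alike, with 147, 178, 180.3 and 202 CPM in Flcn KO and 169.6, 174, 192 and 169.7 CPM in WT. The groups overlapped at all 4, with log2 fold changes of −0.13 at Mvk, 0.13 at Pmvk, −0.0052 at Mvd and −0.0024 at Idi1. Of the 3 peaks assigned to Mvk itself, which lie outside the gene, the one 701 bp from its end at chr5:114461292-114461596 had libraries that did not overlap, with 2.35, 1.603, 1.99 and 1.52 CPM in Flcn KO and 3.74, 3.12, 2.55 and 5.41 CPM in WT, but it did not pass the test (log2 fold change −0.95, SE 0.47, adjusted p = 0.397 by edgeR).

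Farnesyl diphosphate synthase (Fdps) and squalene synthase (Fdft1) lead to squalene, which squalene epoxidase (Sqle) oxidises. The gene-end peak of Fdps had 37.9, 57.7, 37.3 and 45.7 CPM in Flcn KO and 35.3, 41.9, 47.9 and 44.8 CPM in WT. The only Fdft1 peak, inside the gene 3385 bp from its end and within 5 kb of Neil2, had 178, 199, 207 and 208 CPM in Flcn KO and 186, 176, 206 and 200.5 CPM in WT. The gene-end peak of Sqle had 76.2, 106, 89.0 and 102 CPM in Flcn KO and 124, 89.2, 102 and 104 CPM in WT. Flcn KO and WT libraries overlapped at each of these peaks. Their log2 fold changes were 0.069, 0.045 and −0.18, and the lowest edgeR adjusted p of the 3, at Sqle, was 0.561.

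Lss, which closes squalene epoxide into lanosterol, the first sterol of the pathway, held the called peak. It lies inside the gene at chr10:76541368-76541704, its centre 9.93 kb from the start site, and is a weak site, with 1.56, 1.07, 0.995 and 2.29 CPM in Flcn KO replicates 1 to 4, against 6.64, 4.91, 4.59 and 4.92 CPM in WT replicates 1 to 4. All 4 Flcn KO libraries were below all 4 WT libraries. Accessibility there fell to 1.48 ± 0.595 CPM in Flcn KO, against 5.26 ± 0.931 CPM in WT (SD, n = 4 each), for which edgeR gave a log2 fold change of −1.86 with an SE of 0.45 and an adjusted p = 0.0155. In sorted cells measured in bulk, fewer cells with the site open and less accessibility per cell cannot be told apart. The raw counts behind these values were 8, 4, 4 and 6 in Flcn KO and 32, 22, 18 and 20 in WT. The call did not hold with limma-voom (adjusted p = 0.0683), nor with edgeR without WT replicate 1 (0.0879), without Flcn KO replicate 2 (0.0552) or without Flcn KO replicate 3 (0.0563), and over the alternatives that could test the peak the log2 fold change ran from −2.08 to −1.72 and the adjusted p from 0.0115 to 0.0879. A stricter low-count filter left the peak untested.

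The other Lss peaks did not pass the test. The promoter peak at chr10:76531221-76531790, which covers the sequence printed above, had 95.02, 113, 110.4 and 101 CPM in Flcn KO and 112, 95.9, 111 and 120.5 CPM in WT, and its groups overlapped (log2 fold change −0.065, SE 0.10, adjusted p = 0.863 by edgeR). The peak at chr10:76542976-76543335, 11.6 kb past the start, had 6.65, 5.34, 2.98 and 7.62 CPM in Flcn KO and 6.64, 10.3, 2.55 and 7.87 CPM in WT (log2 fold change −0.30, SE 0.36, adjusted p = 0.812). The promoter was about as open in both groups and far more open than the site inside the gene. The gene table used gives spans only, so the peak at 9.93 kb could not be placed in an exon or an intron.

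**Figure D3:**
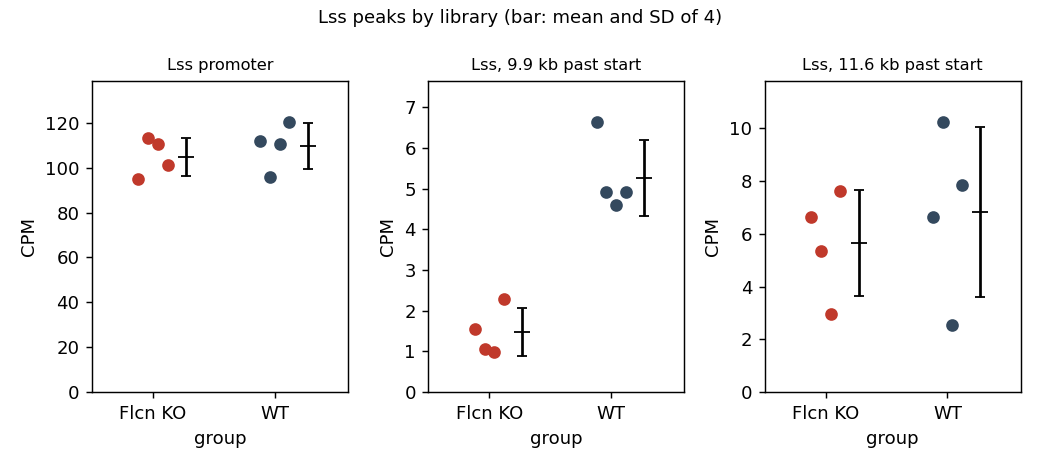
CPM of the 3 Lss peaks in each library, Flcn KO (left) and WT (right) in each panel, with the mean and SD of 4; each panel has its own axis from 0. The groups separate in the middle panel only, where Flcn KO libraries lie between 0.995 and 2.29 CPM and WT libraries between 4.59 and 6.64 CPM.

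Lanosterol is turned into cholesterol by demethylation, isomerisation, desaturation and reduction. Cyp51, the lanosterol demethylase, had 131, 135, 136 and 149 CPM in Flcn KO and 123, 139.6, 146 and 144 CPM in WT at its promoter. Msmo1, the methylsterol oxidase, had the most open promoter of the set, at the 99.97 percentile of tested promoter-window peaks, with 348, 404, 385 and 445 CPM in Flcn KO and 354, 349, 396 and 395 CPM in WT. That percentile ranks CPM per kb averaged over all 8 libraries, and Msmo1 had 701 CPM per kb in Flcn KO and 662 CPM per kb in WT. Hsd17b7, a sterol ketoreductase, had 249.5, 255, 246 and 282 CPM in Flcn KO and 243, 241, 247 and 256 CPM in WT at a peak it shares with the promoter of 3110045C21Rik. Nsdhl, a sterol dehydrogenase, has no peak of its own by the assignment rule, but its promoter window lies in a peak assigned to Cetn2 that had 72.3, 70.0, 64.9 and 61.0 CPM in Flcn KO and 71.2, 60.5, 64.2 and 64.5 CPM in WT. None of the 4 separated the groups. Their log2 fold changes were −0.0061 at Cyp51, 0.081 at Msmo1, 0.062 at Hsd17b7 and 0.047 at the Nsdhl window.

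The last sterol enzymes are Ebp, an isomerase, Sc5d, a desaturase, and Dhcr7, the reductase of the final step. The Ebp peak, 578 bp past its start and within 5 kb of Porcn, had 28.2, 23.5, 28.3 and 29.7 CPM in Flcn KO and 20.3, 27.7, 26.0 and 22.1 CPM in WT. The Sc5d promoter peak had 40.9, 49.7, 36.3 and 53.3 CPM in Flcn KO and 43.2, 51.1, 50.5 and 43.8 CPM in WT. Dhcr7 had a peak at each of its promoter windows, at chr7:143829460-143830420 with 104, 118, 103 and 147 CPM in Flcn KO and 117, 128, 127 and 139.7 CPM in WT, and at chr7:143822720-143823261, shared with Nadsyn1, with 36.0, 43.8, 32.8 and 30.5 CPM in Flcn KO and 40.7, 42.4, 40.3 and 48.7 CPM in WT. Flcn KO and WT overlapped at all of them. The Nadsyn1-side peak had the lowest sterol promoter log2 fold change, −0.26 (95% interval −0.55 to 0.029, edgeR adjusted p = 0.463). A peak assigned to Sc5d that lies 42.2 kb outside the gene at chr9:42208593-42209416, over a promoter window of 4930546K05Rik, had 11.7, 10.7, 5.97 and 7.62 CPM in Flcn KO and 4.98, 7.14, 5.10 and 6.40 CPM in WT, the highest log2 fold change of a sterol peak, which did not pass the test (log2 fold change 0.62, SE 0.29, adjusted p = 0.3602).

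Among the regulators, the factor genes and the INSIG genes gave no call. Srebf1, which encodes SREBP-1, the form that favours fatty acid genes, had 3 promoter peaks. The one at chr11:60210262-60210736 had 47.7, 36.3, 39.8 and 45.7 CPM in Flcn KO and 49.8, 44.6, 47.4 and 44.8 CPM in WT. The one at chr11:60222734-60223301 had 25.4, 24.6, 25.4 and 34.3 CPM in Flcn KO and 27.4, 27.2, 22.9 and 29.5 CPM in WT, of which Flcn KO replicate 4 stood above the rest. The third, at chr11:60220471-60220794, was weaker, with 8.21, 10.7, 5.47 and 6.10 CPM in Flcn KO and 8.72, 8.48, 7.14 and 8.36 CPM in WT. Their log2 fold changes were −0.14, 0.02 and −0.093 in that order. Srebf2, which encodes SREBP-2, the form that favours sterol genes, had 42.6, 49.7, 41.8 and 47.6 CPM in Flcn KO and 49.8, 40.1, 47.9 and 40.3 CPM in WT at its promoter, a log2 fold change of 0.023 (95% interval −0.24 to 0.29).

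Insig1 and Insig2 encode the proteins that hold SCAP in the endoplasmic reticulum. The Insig1 promoter peak had 61.0, 70.8, 56.7 and 48.8 CPM in Flcn KO and 61.4, 63.8, 70.1 and 68.4 CPM in WT, and edgeR gave a log2 fold change of −0.14 with an SE of 0.12 and an adjusted p = 0.688. The Insig2 promoter peak had 103, 85.5, 90.0 and 94.5 CPM in Flcn KO and 109, 86.5, 115 and 107 CPM in WT, and edgeR gave a log2 fold change of −0.16 with an SE of 0.10 and an adjusted p = 0.570. Another Insig2 window, starting at chr1:121332540, was covered by no peak. The groups overlapped at both.

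Scap, whose product escorts SREBPs to the Golgi, had the only one of the 30 promoter and gene-end peaks at which the libraries did not overlap, against 4.97% of all promoter-window peaks. Its peak at chr9:110333120-110333735 had 14.5, 17.6, 13.4 and 16.8 CPM in Flcn KO replicates 1 to 4, against 11.6, 10.5, 11.7 and 11.8 CPM in WT replicates 1 to 4. The means were 15.6 ± 1.96 CPM in Flcn KO and 11.4 ± 0.623 CPM in WT (SD, n = 4 each). The difference did not pass the test (log2 fold change 0.44, SE 0.22, adjusted p = 0.388 by edgeR), and its log2 fold change lay between 0.38 and 0.51 and its adjusted p between 0.333 and 0.582 over the alternatives run. The peak covers the E-box marked in the Scap sequence above, at position −40 from the start site. An overlapping second Scap window holds the same site. The remaining Scap peak, 3.24 kb outside the gene, had a log2 fold change of 0.26 (SE 0.44).

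Fatty acid synthesis starts with cytosolic acetyl-CoA, which Acly makes from citrate and Acss2 from acetate. The Acly promoter peak had 25.03, 35.8, 27.9 and 23.6 CPM in Flcn KO and 37.8, 23.4, 34.2 and 33.2 CPM in WT, with a log2 fold change of −0.19 (SE 0.17). The Acss2 promoter peak had 27.4, 40.9, 25.6 and 28.6 CPM in Flcn KO and 36.1, 38.4, 29.6 and 39.6 CPM in WT, with a log2 fold change of −0.23 (SE 0.16). The groups overlapped at both promoters. A peak inside Acss2, 20.5 kb past its start at chr2:155538288-155538829, had 5.47, 4.81, 7.96 and 4.57 CPM in Flcn KO and 9.96, 9.37, 11.7 and 6.40 CPM in WT; it reached an unadjusted p below 0.05 and did not pass the test (log2 fold change −0.70, SE 0.29, adjusted p = 0.270 by edgeR). All 4 tested Acss2 peaks had negative log2 fold changes, between −0.70 and −0.06.

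Acaca, the acetyl-CoA carboxylase that commits carbon to fatty acids, had 3 tested peaks inside the gene and none at a promoter window of its own. The strongest, at chr11:84179275-84179968, had 28.9, 33.1, 33.3 and 45.0 CPM in Flcn KO and 35.5, 38.8, 38.2 and 35.4 CPM in WT and a log2 fold change of −0.093 (SE 0.15). The peak at one gene end, which is also the promoter of Tada2a, had 10.4, 13.9, 12.2 and 14.5 CPM in Flcn KO and 12.9, 12.1, 14.8 and 11.3 CPM in WT. Fasn, the fatty acid synthase, had a single peak, at its promoter, with 27.4, 28.9, 27.4 and 26.3 CPM in Flcn KO and 29.5, 28.1, 28.1 and 29.0 CPM in WT (log2 fold change −0.06, 95% interval −0.37 to 0.25). At 31.3, the percentile of the Fasn promoter among tested promoter-window peaks was below those of Hmgcs1 (99.1), Msmo1 (99.97) and Lss (90.8). Flcn KO and WT libraries overlapped at each of these Acaca and Fasn peaks.

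Scd1 and Scd2 encode stearoyl-CoA desaturases, and Fads1 and Fads2 desaturases of polyunsaturated fatty acids. The gene-end peak of Scd1 was the weakest of the 30, at the 0.956 percentile, with 4.30, 3.74, 2.49 and 1.52 CPM in Flcn KO and 0.415, 2.68, 1.02 and 0.984 CPM in WT. It had the highest log2 fold change of the set and did not pass the test (log2 fold change 1.26, SE 0.57, adjusted p = 0.327 by edgeR), and its groups overlapped. The gene-end peak of Scd2 had 13.3, 10.7, 10.4 and 5.33 CPM in Flcn KO and 11.6, 14.9, 10.2 and 13.3 CPM in WT (log2 fold change −0.30, SE 0.25). The gene-end peak of Fads1 had 22.3, 19.2, 16.9 and 24.4 CPM in Flcn KO and 20.3, 17.4, 19.9 and 21.2 CPM in WT (log2 fold change 0.066, SE 0.19). Scd2 had 10 tested peaks, with log2 fold changes between −0.54 and 0.36 and none called. Outside Scd2, the peak 12.6 kb away at chr19:44280763-44281060 had 10.2, 9.62, 7.46 and 9.14 CPM in Flcn KO and 12.4, 9.37, 13.8 and 16.7 CPM in WT (log2 fold change −0.52, SE 0.25, adjusted p = 0.364), and the groups overlapped there. The peak 7.64 kb away at chr19:44314503-44315219 had 11.3, 12.8, 11.9 and 13.7 CPM in Flcn KO and 18.3, 14.3, 16.3 and 17.2 CPM in WT (log2 fold change −0.42, SE 0.21, adjusted p = 0.409), with every Flcn KO library below every WT library.

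The elongases held most of the fatty acid peaks, 15 tested at Elovl5 and 19 at Elovl6, and 0 of the 34 were called. Elovl5 lengthens polyunsaturated fatty acids. Its promoter was the most open fatty acid promoter, with 96.6, 113, 88.3 and 102 CPM in Flcn KO and 94.5, 87.9, 106 and 103 CPM in WT and a log2 fold change of 0.032 (SE 0.10). Inside the gene, the signs were mixed. The peak at chr9:77921557-77921951, 4.39 kb past the start, had 29.1, 22.2, 25.6 and 35.0 CPM in Flcn KO and 15.4, 19.9, 25.2 and 15.2 CPM in WT, and had the lowest adjusted p of the fatty acid group without passing the test (log2 fold change 0.56, SE 0.19, adjusted p = 0.129 by edgeR). The peak 11.6 kb past the start had 6.26, 5.34, 3.98 and 4.57 CPM in Flcn KO and 2.49, 3.79, 2.04 and 3.94 CPM in WT, with no overlap between groups (log2 fold change 0.72, SE 0.39, adjusted p = 0.447). Further in, the peak 48.7 kb past the start had 5.47, 10.2, 7.46 and 10.7 CPM in Flcn KO and 4.57, 5.35, 7.14 and 2.95 CPM in WT (log2 fold change 0.73, SE 0.32, adjusted p = 0.312). The peak 44.1 kb past the start had values in the other direction, 1.96, 4.28, 5.72 and 0.762 CPM in Flcn KO and 6.23, 8.03, 5.61 and 4.43 CPM in WT (log2 fold change −0.90, SE 0.41, adjusted p = 0.328), which was the lowest log2 fold change of the fatty acid group. The groups overlapped at the 4.39, 44.1 and 48.7 kb peaks.

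Elovl6 lengthens saturated and monounsaturated fatty acids. No peak covered its promoter window, and its strongest peak lay inside the gene at chr3:129536171-129536618, 4.01 kb past the start, with 159.5, 184, 188 and 208 CPM in Flcn KO and 157, 162, 162 and 176 CPM in WT (log2 fold change 0.17, SE 0.091, adjusted p = 0.445 by edgeR). That is a high level for a site away from a promoter, where the median tested peak had 7.42 CPM. The peak 20.3 kb past the start, at chr3:129552533-129552750, had 4.69, 2.67, 4.47 and 5.33 CPM in Flcn KO and 5.19, 10.3, 7.14 and 8.36 CPM in WT (log2 fold change −0.85, SE 0.33, adjusted p = 0.211). Its neighbour at chr3:129553180-129553608, under 1 kb away, had 76.7, 58.2, 69.1 and 67.8 CPM in Flcn KO and 68.9, 62.2, 88.0 and 56.3 CPM in WT, a log2 fold change of −0.014 (SE 0.12). The groups overlapped at all 3.

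**Figure D4:**
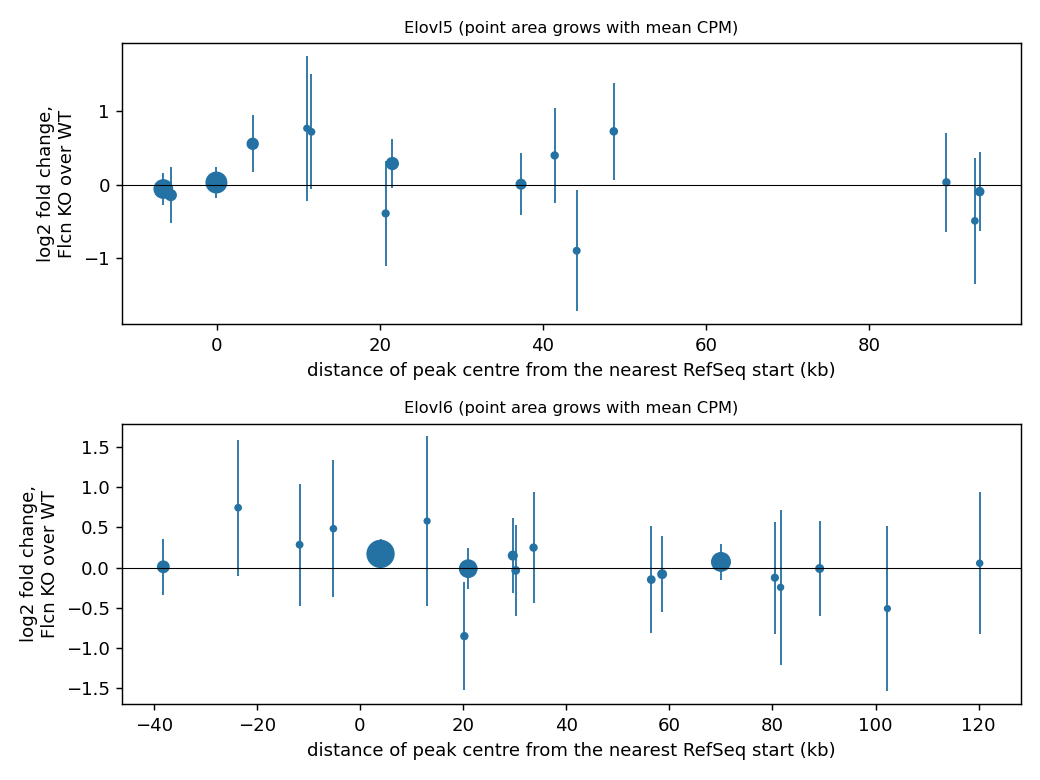
Log2 fold change (Flcn KO over WT, bars 95% intervals) of the 15 tested Elovl5 peaks (top) and 19 tested Elovl6 peaks (bottom) by distance of the peak centre from the nearest RefSeq start, with point area growing with mean CPM. Points fall on both sides of 0, the strongest peaks lie near 0 with short bars, and none is called.

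Added over all tested peaks of a group, accessibility was nearly equal between Flcn KO and WT. Such a sum gives most weight to the strongest peaks and can hide differences of opposite sign between genes. Sterol genes summed to 1967, 2221, 2083 and 2342 CPM in Flcn KO replicates 1 to 4, against 2092, 2060, 2226 and 2241 CPM in WT replicates 1 to 4 (means 2153 ± 163 CPM in Flcn KO and 2155 ± 92.2 CPM in WT, log2 ratio −0.0012). Fatty acid genes summed to 1105, 1157, 1081 and 1192 CPM in Flcn KO replicates 1 to 4, against 1102, 1101, 1152 and 1155 CPM in WT replicates 1 to 4 (means 1134 ± 50.3 CPM in Flcn KO and 1128 ± 29.9 CPM in WT, log2 ratio 0.0077). Regulators summed to 403, 410.4, 386 and 399 CPM in Flcn KO replicates 1 to 4, against 430.5, 389, 439 and 421 CPM in WT replicates 1 to 4 (means 399.6 ± 10.1 CPM in Flcn KO and 419.7 ± 21.9 CPM in WT, log2 ratio −0.07). In each of the 3 sums the ranges overlapped, and errors are SD over 4 libraries. With each library left out in turn, the log2 ratio ran from −0.04 (without Flcn KO replicate 4) to 0.04 (without Flcn KO replicate 1) for sterol genes. It ran from −0.017 (without Flcn KO replicate 4) to 0.03 (without Flcn KO replicate 3) for fatty acid genes, and from −0.11 (without WT replicate 2) to −0.05 (without WT replicate 3) for regulators. Promoter-window peaks took 40.2% to 43.3% of the counts in Flcn KO libraries and 40.6% to 43.6% in WT libraries.

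Counts were also summed over the peaks of each gene and tested in the same way over 13483 genes, of which 1.87% were called (1.16% higher and 0.705% lower). None of the 30 member genes was called by edgeR. The number with an unadjusted p below 0.05 was 2, against 12.6% of all genes, and 1 gene had libraries that did not overlap, against 7.31% of all. The median log2 fold change was 0.0089 for sterol genes, −0.05 for fatty acid genes and −0.08 for regulators, beside −0.0048 over all genes. Among fatty acid genes it was negative at Acly (−0.18), Acss2 (−0.25), Acaca (−0.10), Fasn (−0.05) and Scd2 (−0.15). It was positive at Elovl5 (0.08), Elovl6 (0.095), Scd1 (0.10) and Fads1 (0.081). Elovl5 and Elovl6 had the largest sums of these genes. For 21 of the 30 genes (12 of 16 sterol, 5 of 9 fatty acid and 4 of 5 regulators) the 95% interval lay within a change of 25% in either direction.

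The 2 genes with an unadjusted p below 0.05 were Scap and Acss2. Scap, whose libraries did not overlap, had summed levels of 20.4, 24.4, 18.3 and 20.2 CPM in Flcn KO and 15.2, 16.5, 17.6 and 13.2 CPM in WT (log2 fold change 0.41, SE 0.19, adjusted p = 0.334 by edgeR, interval 2.37% to 73.2%). Acss2 had 53.4, 64.6, 58.5 and 52.0 CPM in Flcn KO and 71.3, 72.7, 61.2 and 67.0 CPM in WT (log2 fold change −0.25, SE 0.11, adjusted p = 0.309, interval −28.1% to −1.99%), with overlap. Neither difference passed the test. For Lss, the called peak was a small part of the sum, which was 110.2, 124, 124 and 117 CPM in Flcn KO and 131, 119, 124 and 138 CPM in WT (log2 fold change −0.11, SE 0.085, adjusted p = 0.663). Intervals were narrow for the most open sterol genes. The interval was −9.65% to 13.5% for Hmgcs1, −5.06% to 19.0% for Msmo1 and −7.00% to 16.8% for Fdft1. It was widest for genes with weak peaks, such as Pmvk (−29.1% to 37.1%).

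**Figure D5:**
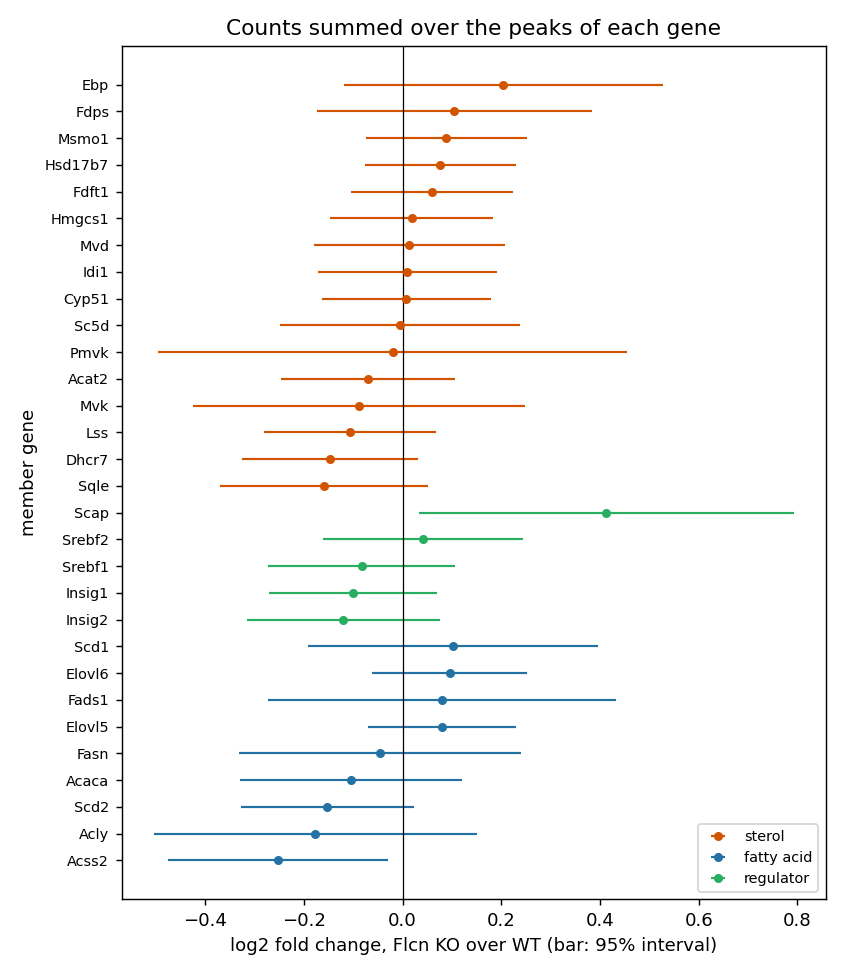
Log2 fold change, Flcn KO over WT, of the counts summed over the peaks of each of the 30 genes with a tested peak, with 95% intervals, grouped as sterol (orange), regulator (green) and fatty acid (blue). The intervals of 28 genes cross 0, those of Scap and Acss2 do not, and no gene is called after adjustment.

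Other genes of these pathways gave 4 calls. Among 17 further sterol genes (later enzymes, transporters and nuclear receptors), 53 peaks were tested, 1 was higher and 0 were lower. Among 9 genes of SREBP processing and escort, 25 peaks were tested and 0 were called in either direction. Among 26 further fatty acid genes (elongation, activation, transport, oxidation and their regulators), 74 peaks were tested, 1 was higher and 2 were lower. Read against the 2.37% of all tested peaks, these counts are 1 of 53, 0 of 25 and 3 of 74. No gene of the 3 lists was called on its summed counts (16, 9 and 24 genes tested).

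The peak that rose among sterol genes lies in Abca1, the cholesterol exporter, at chr4:53121964-53122339, with 10.9, 9.08, 10.4 and 8.38 CPM in Flcn KO and 3.32, 4.91, 3.06 and 6.89 CPM in WT (log2 fold change 1.11, SE 0.31, adjusted p = 0.0420). In Acsl1, which activates long-chain fatty acids, a peak at chr8:46512608-46512957 rose, with 9.38, 9.08, 12.4 and 9.91 CPM in Flcn KO and 2.49, 4.01, 6.12 and 3.44 CPM in WT (log2 fold change 1.35, SE 0.31, adjusted p = 0.00977). All Flcn KO libraries were above all WT libraries at both peaks. The Abca1 call was lost when any 1 of 7 libraries (all but WT replicate 4) was left out. A peak 9.16 kb outside Lpin1, which encodes a phosphatidate phosphatase, at chr12:16526132-16526512 fell, with 3.52, 2.40, 4.47 and 2.29 CPM in Flcn KO and 14.5, 12.5, 4.59 and 6.15 CPM in WT (log2 fold change −1.55, SE 0.36, adjusted p = 0.0117). A peak in Hacd3, which encodes an acyl-CoA dehydratase of fatty acid elongation, at chr9:65018557-65018807 fell, with 2.74, 1.07, 0.497 and 1.52 CPM in Flcn KO and 5.40, 11.2, 3.06 and 2.95 CPM in WT (log2 fold change −1.89, SE 0.50, adjusted p = 0.0314). All Flcn KO libraries were below all WT libraries at both. The adjusted p-values are from edgeR over all tested peaks. The Acsl1 call was lost without WT replicate 1 or Flcn KO replicate 3, the Lpin1 call without WT replicate 1, WT replicate 2 or Flcn KO replicate 2, and the Hacd3 call when any of WT replicates 1 and 2 and Flcn KO replicates 2, 3 and 4 was left out. With limma-voom, the Lpin1 and Hacd3 calls were lost too.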

How the data were processed

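Raw ATAC-seq read counts per peak were deposited by the authors for 57199 shared peaks in 8 libraries, in mm10 coordinates and with no normalization. The submitters' processing notes list MACS2 2.1.1, bedtools 2.25.0, BWA 0.7.16, Trimmomatic 0.36, SAMtools 1.9 and Picard 2.9.4, with no role or order. The merging of peaks, removal of duplicates and shifting of reads for the transposase are not stated. Peak starts, which count from 0 in the deposited table, were converted to count from 1. Differences of Flcn KO from WT were tested with edgeR 4.0.16 (R 4.3.3; filterByExpr minimum count 10, TMM, robust quasi-likelihood test, genotype as the only term), on counts per peak and on counts summed per gene, with Benjamini-Hochberg adjustment over all tested peaks or genes and a threshold of 0.05. SEs were derived from the F statistic. Genes and promoter windows came from RefSeq tables of GRCm38.p6 (21883 protein-coding genes). Alternatives were DESeq2 1.42.0 size factors and Wald test, library size alone, limma-voom (limma 3.58.1) with sample weights, no filter, a stricter filter (minimum count 30), dispersion without robust fitting, a replicate block, narrower assignment distances, and each library left out in turn. Named were all members, with values per library for promoter peaks, called peaks, peaks with an unadjusted p below 0.05 and the largest changes; peaks whose groups did not overlap, and the strongest peaks of genes without a promoter peak, were added after their values were seen. The members and lists were chosen with earlier results of these data known. Counts of both read ends are not independent molecules, so errors rest on the spread between replicates. The result of 1 further marker list is not reported here.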

Additional observations from a re-analysis of the deposited data

Results flagged for a closer look

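In groups of 4 libraries, the highest or lowest value was set apart from the others at 4 of the 150 groups examined, by a gap larger than Dixon's critical value at the 95% level allows; chance alone flags about 1 in 20 groups. At the called Lss peak, WT replicate 1 had 6.64 CPM, while the other WT libraries had 4.59 to 4.92 CPM. At the Srebf1 promoter peak at chr11:60222734-60223301, Flcn KO replicate 4, the shallowest library, had 34.3 CPM, while the other Flcn KO libraries had 24.6 to 25.4 CPM. At the Scap promoter peak, WT replicate 2 had 10.5 CPM, while the other WT libraries had 11.6 to 11.8 CPM, a narrow range. The summed level of Hsd17b7 was 298 CPM in Flcn KO replicate 4, while the other Flcn KO libraries had 265 to 267 CPM.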

How the results depend on the processing

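No alternative called a member peak higher or a member gene in either direction. The count of lower member peaks, 1 with edgeR, was 0 under the stricter filter, which left the Lss peak untested, and 0 with limma-voom; leaving out each library in turn gave 0 to 1. Of 1174 alternative values for 72 named peaks and gene sums, 1151 kept their side of the threshold and none reversed a call; 23 lost one, at Lss, Abca1, Lpin1, Acsl1 and Hacd3, as given above. Among uncalled results, 61 values of 20 results changed sign, all of a size up to 0.211 on the log2 scale. Over all peaks, 644 were higher and 489 lower. Leaving out each library gave 420 to 863 higher and 217 to 934 lower, both highest without Flcn KO replicate 1. The stricter filter gave 282 lower. Over all genes, 157 were higher and 95 lower. Leaving out each library gave 101 to 282 higher and 39 to 283 lower, again highest without Flcn KO replicate 1. Summing only peaks within 1 kb gave 57 lower. The replicate block gave 736 higher and 639 lower peaks, 183 higher and 139 lower genes, and the same counts of member calls. Same-numbered libraries deviated together only weakly (correlations 0.0804, −0.052, 0.0572 and 0.0526, and 1 of 4 Flcn KO libraries correlated best with its own number). With 4 libraries per group, these values cannot decide whether equal numbers mark pairs, and the labels do not say so. The cause of the differences between settings was not tested. Peaks near the low-count filter rest on few reads, and accessibility says nothing of transcript levels.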
